A study of Homo sapiens with 8 samples.

Results

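The DUSP, SPRY and SPRED genes encode inhibitors that ERK signalling switches on against itself, and 9 of them were followed here in HepG2 cells: DUSP1, DUSP4, DUSP5, DUSP6, SPRY1, SPRY2, SPRY4, SPRED1 and SPRED2. They were taken by symbol, through their Ensembl gene IDs, and all 9 were found among the 20897 genes listed in each library. HepG2 is an established human liver carcinoma line, and polyA RNA of 8 cultures was sequenced. Cells were plated with 10% serum, moved after 24 h to medium with 1% serum, and treated 8 h later for 18 h with vehicle only (DMSO, 3 libraries), with genistein (3 libraries) or with BMP6 at 50 ng/ml (2 libraries). Every culture, treated or not, held 1% DMSO and the same low serum, and no group was given an ERK inhibitor or a growth factor other than BMP6. The genistein dose is printed as 10 micromolar in one label and as 10 millimolar in another, and the sources used here do not settle which. The series calls the libraries biological replicates of this single cell line.

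Receptor tyrosine kinases activate RAS, RAF and MEK in turn, and MEK phosphorylates ERK, which enters the nucleus and drives transcription of growth genes and of its own inhibitors. The dual specificity phosphatases of the DUSP family remove the activating phosphates from ERK and related kinases. Sprouty proteins act near the receptor and RAS, and SPRED proteins bring the RAS inhibitor neurofibromin to the membrane. Because several of these transcripts rise within hours of ERK activity, their levels are widely read as a record of it. Genistein, an isoflavone of soy, inhibits tyrosine kinases and binds oestrogen receptors. BMP6 signals through SMAD proteins and raises hepcidin in hepatocytes.

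Values are FPKM, fragments scaled by the authors to transcript length and library size, so levels of different genes may be set side by side per length. The depth of the libraries is unknown and limits precision to an extent that cannot be stated. FPKM totals ranged from 1704599 to 3105197 per library, and between 8347 and 10364 genes per library were listed at exactly 0. A 0 can be a failed estimate, but the deposited status marks only 31 to 55 genes per library as failed. None of the 9 genes carries that mark in any library. Zeros among tested genes were most frequent in DMSO 1 (1679) and genistein 2 (2167), while the other libraries had 356 to 962. All 10 hepatocyte markers were above 0 in every library, with a summed level of 178610 to 222921 FPKM in DMSO, 134012 to 215327 after genistein and 205765 to 226164 after BMP6. Single markers moved apart within that sum: APOA1 averaged 53321 FPKM in DMSO and 8219 after genistein, and ALB 29743 in DMSO, 51777 after genistein and 101374 after BMP6. Of the fibroblast markers 5 of 6 were at 0 throughout, and the other, PDGFRB, was at 1.88 to 4.91 FPKM in DMSO, 0 to 2.92 after genistein and 14.3 to 19.5 after BMP6. The 4 endothelial markers found summed to at most 1.71 FPKM, with KDR and TEK at 0. The leukocyte genes PTPRC and CD3E were at 0 in every library, while the list summed to 3259 to 4865 FPKM in DMSO, 1243 to 1955 after genistein and 1563 to 2406 after BMP6, nearly all of it LYZ. CD68 was at 31.4 to 40.6 FPKM in DMSO and 68.8 to 86.7 after genistein, CD14 averaged 6.44 and 43.4 FPKM there, and the part of these markers in the results was not tested.

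Promoter sequence from RefSeq (GRCh38.p14) was found for 7 of the 9 genes, as 11 windows of 250 bases before a start. DUSP4 and DUSP5 were not among the 7 and were not searched. The windows were searched on both strands for an ETS core (CCGGAA, in 14.5% of 35116 windows of all genes), an AP-1 site (TGANTCA, 6.57%), a CRE (TGACGTCA, 1.65%) and a C/EBP-ATF composite (TGATGNAA, 3.14%). The ETS core was found in 1 window each of SPRY1 and SPRY2, the CRE in DUSP1 and the C/EBP-ATF composite in SPRED2. The AP-1 site was found in none of the 11 windows. A pair of sequences is printed to set side by side SPRY4, the Sprouty gene that rose after genistein, and DUSP1, a phosphatase gene that did not pass in any comparison. DUSP1 is shown on the minus strand, chr5:172771196-172771445, with the CRE in capitals, 125 bases before the start. SPRY4 is shown on the minus strand, chr5:142324418-142324497, where its window was cut back to the 80 bases that lie 171 to 250 before the RefSeq start, since a GENCODE v29 exon of the gene begins at 142324417; none of the searched motifs was found in the whole window. A match or its absence describes these letters only.
DUSP1: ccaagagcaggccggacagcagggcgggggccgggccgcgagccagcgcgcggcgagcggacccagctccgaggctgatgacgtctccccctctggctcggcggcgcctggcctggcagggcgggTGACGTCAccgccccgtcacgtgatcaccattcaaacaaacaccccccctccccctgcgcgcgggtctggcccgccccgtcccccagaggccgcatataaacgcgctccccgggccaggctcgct
SPRY4: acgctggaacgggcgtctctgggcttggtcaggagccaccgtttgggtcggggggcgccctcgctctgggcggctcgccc

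Under vehicle, DUSP6 was the most abundant of the 9 transcripts at 433 ± 63.4 FPKM (SD, n = 3), above 93.6% of the tested genes. SPRED2 (81.6 ± 18.9 FPKM), DUSP1 (81.4 ± 1.78) and SPRY1 (72.2 ± 11.1) came next, and their libraries overlapped. SPRY4 stood below them at 33.1 ± 3.35 FPKM, in the middle of the tested genes (47.0% lay below it). SPRY2 (17.8 ± 4.32 FPKM) and SPRED1 (10.3 ± 2.64) followed, again with overlapping libraries, then DUSP5 (5.4 ± 2.78), and DUSP4 was listed at 0. After genistein DUSP6 was still highest, and by their means SPRY4 and then DUSP5 followed it, above 88.6% and 76.6% of the tested genes, although DUSP5 overlapped SPRED2 and SPRY1. After BMP6 the DUSP6 libraries overlapped those of SPRY4, SPRY1 and DUSP1, and DUSP5 and DUSP4 were the lowest of the 9, with overlapping libraries.

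**Figure D1:**
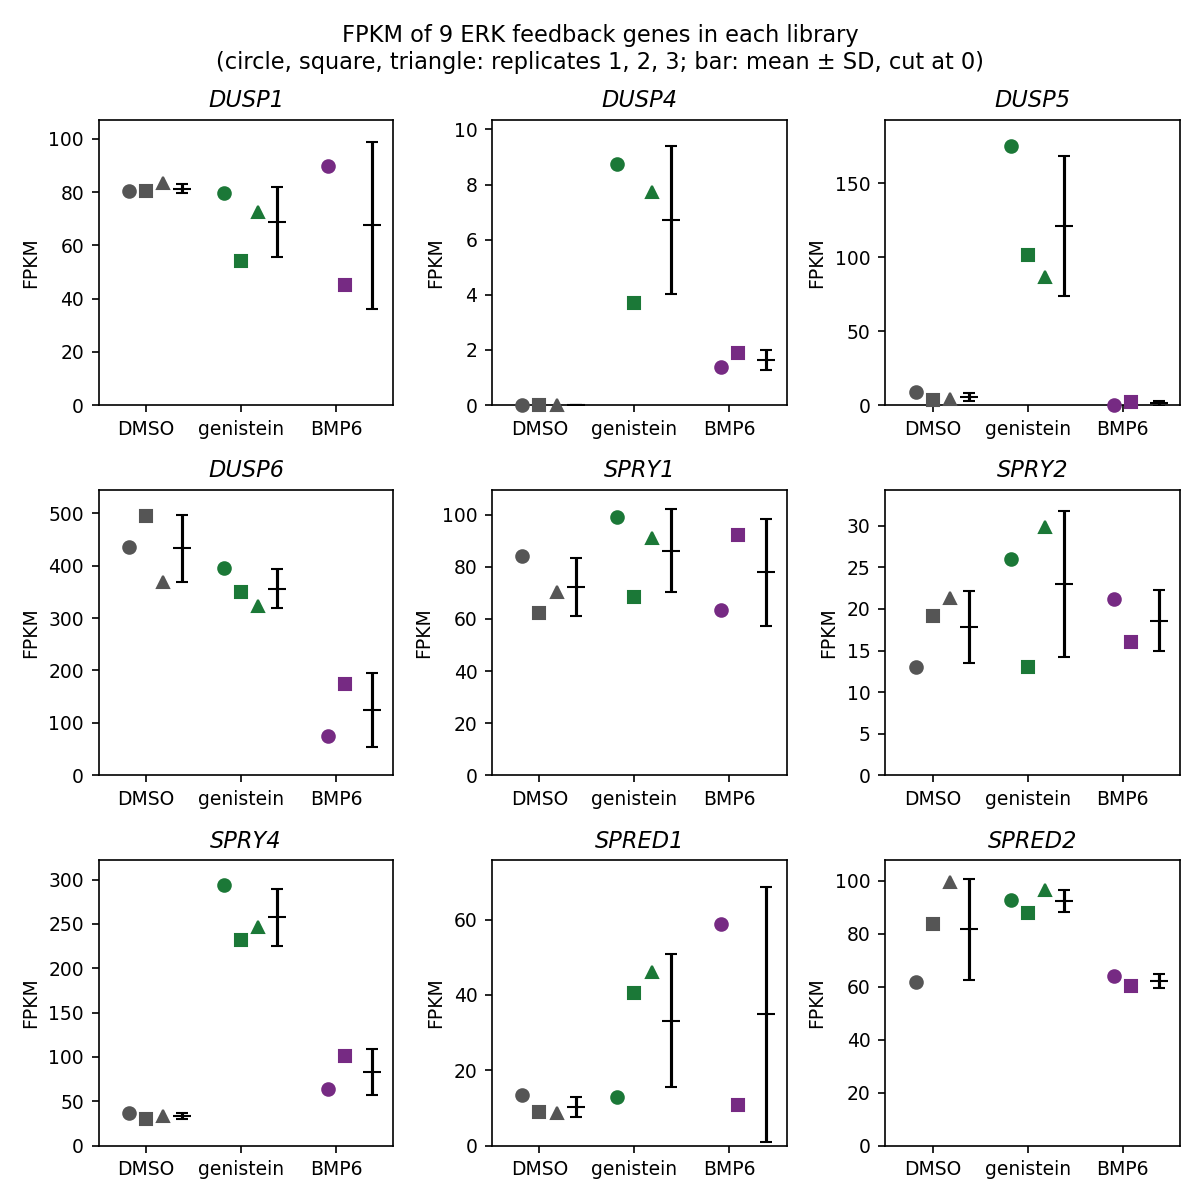
FPKM (vertical axis, from 0) of each gene in every DMSO, genistein and BMP6 library, with replicates 1, 2 and 3 as circle, square and triangle and a bar for mean ± SD. DUSP5 and SPRY4 are far higher in all 3 genistein libraries than elsewhere, DUSP6 is lowest in both BMP6 libraries, and SPRED1 differs widely within the genistein and BMP6 groups.

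Genistein raised 3 of the 9 feedback genes, DUSP5, SPRY4 and DUSP4, and lowered none at a limma adjusted p under 0.05. Over all 12661 tested genes, 12.1% passed in this comparison, 6.11% of all as higher and 5.96% of all as lower. The remaining 6 genes, among them the abundant DUSP6, did not pass. The same 3 had an unadjusted p under 0.05, as did 30.0% of all tested genes. Genistein and DMSO libraries did not overlap for 4 of the 9, these 3 and DUSP1, against 43.9% of all tested genes. The median log2 change of the 9 was 0.30, against 0.05 for all tested genes. In whole cultures, a change in RNA per cell and a change in the share of cells that express a gene cannot be told apart. When only genes above 0 in all libraries were tested, DUSP4 and DUSP5 dropped out and SPRY4 alone passed.

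DUSP5 (ENSG00000138166; hg18, chromosome 10, 112247615 to 112261291) encodes a nuclear phosphatase that acts on ERK and holds it in the nucleus. Its level was 8.61, 3.74 and 3.86 FPKM in DMSO 1, 2 and 3, and 175, 101 and 86.8 FPKM in genistein 1, 2 and 3. Every genistein library stood above every DMSO library, as was the case for 23.3% of the tested genes. DUSP5 rose by 4.27 ± 0.56 (log2(FPKM + 1), SE; limma adjusted p = 0.00611), which is 19.3-fold on the FPKM + 1 scale, and it passed in each of the 8 fits without 1 library, with adjusted p of at most 0.0434. For DUSP5, and likewise for SPRY4, DUSP4 and DUSP1, a two-sided exact permutation test gave 0.1, the smallest p that 3 against 3 libraries allow. Every gene whose groups do not overlap reaches it, as 43.9% of the tested genes do, and DUSP1 did not pass by limma.

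SPRY4 (ENSG00000187678; hg18, chromosome 5, 141670189 to 141684750) encodes a Sprouty protein that restrains RAS activation downstream of receptors. Its level was 36.4, 29.7 and 33.3 FPKM in the DMSO libraries and 293, 232 and 246 FPKM in the genistein libraries. The groups did not overlap, and the replicates within each lay close together. SPRY4 rose by 2.92 ± 0.29 on the log2(FPKM + 1) scale (limma adjusted p = 0.00279), 7.55-fold on the FPKM + 1 scale. It passed in all 20 alternative fits, with adjusted p of at most 0.0301.

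DUSP4 (ENSG00000120875; hg18, chromosome 8, 29249539 to 29264104), a nuclear phosphatase of ERK and JNK, was listed at 0 in DMSO 1, 2 and 3. Genistein 1, 2 and 3 had 8.76, 3.69 and 7.72 FPKM, a low level that lay above 18.9% of the tested genes. No fold is given against a group listed at 0. The difference passed (limma adjusted p = 0.0102), but not without DMSO 2 (0.0516) or without genistein 3 (0.0599). DUSP4 was tested only because treated libraries reached 1 FPKM, and DMSO values all at 0 add no spread to the fit.

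The other phosphatases did not pass after genistein. DUSP6 (ENSG00000139318; hg18, chromosome 12, 88265970 to 88270427), a cytoplasmic phosphatase specific for ERK, was at 435, 495 and 368 FPKM in DMSO and at 396, 350 and 322 FPKM after genistein. These ranges overlapped, and the log2 change was -0.28 (95% interval -1.11 to 0.56, limma adjusted p = 0.64). An antisense gene overlaps exons of DUSP6 in GENCODE v29, and since no use of strand is stated, reads of both cannot be told apart. DUSP1 (ENSG00000120129; hg18, chromosome 5, 172127707 to 172130809), a nuclear phosphatase of p38, JNK and ERK, was at 80.3, 80.3 and 83.4 FPKM in DMSO and at 79.5, 54.1 and 72.5 FPKM after genistein. Its genistein libraries all lay below the DMSO libraries, as for 20.6% of the tested genes, but genistein 1 did so by less than 1 FPKM, and the change of -0.26 (95% interval -1.04 to 0.52) did not pass (limma adjusted p = 0.639).

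SPRY1 (ENSG00000164056; hg18, chromosome 4, 124537406 to 124544357) and SPRY2 (ENSG00000136158; hg18, chromosome 13, 79808112 to 79813087), Sprouty genes like SPRY4, kept overlapping ranges between the groups. SPRY1 was at 84.1, 62.2 and 70.4 FPKM in DMSO and at 98.9, 68.4 and 91.2 FPKM after genistein, with a log2 change of 0.25 (95% interval -0.46 to 0.95, limma adjusted p = 0.622). SPRY2 was at 13, 19.1 and 21.3 FPKM in DMSO and at 26, 13.1 and 29.8 FPKM after genistein, with a log2 change of 0.30 (95% interval -0.67 to 1.26, limma adjusted p = 0.665). The intervals of SPRY1 and SPRY2 both end below the lower bound of that of SPRY4, 2.24.

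SPRED2 (ENSG00000198369; hg18, chromosome 2, 65391492 to 65512815) was at 61.8, 83.6 and 99.5 FPKM in DMSO and at 92.6, 88 and 96.3 FPKM after genistein (log2 change 0.20, 95% interval -0.46 to 0.86, limma adjusted p = 0.669). SPRED1 (ENSG00000166068; hg18, chromosome 15, 36331808 to 36433526) was at 13.3, 8.92 and 8.64 FPKM in DMSO, and at 13, 40.4 and 46.2 FPKM in genistein 1, 2 and 3. Genistein 1 thus lay within the DMSO range while genistein 2 and 3 lay above it. The change of 1.44 (95% interval -0.15 to 3.03) did not pass (limma adjusted p = 0.202), and passed in 1 of 20 alternatives, with library weights (0.0212), where 42.5% of all tested genes passed.

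**Figure D2:**
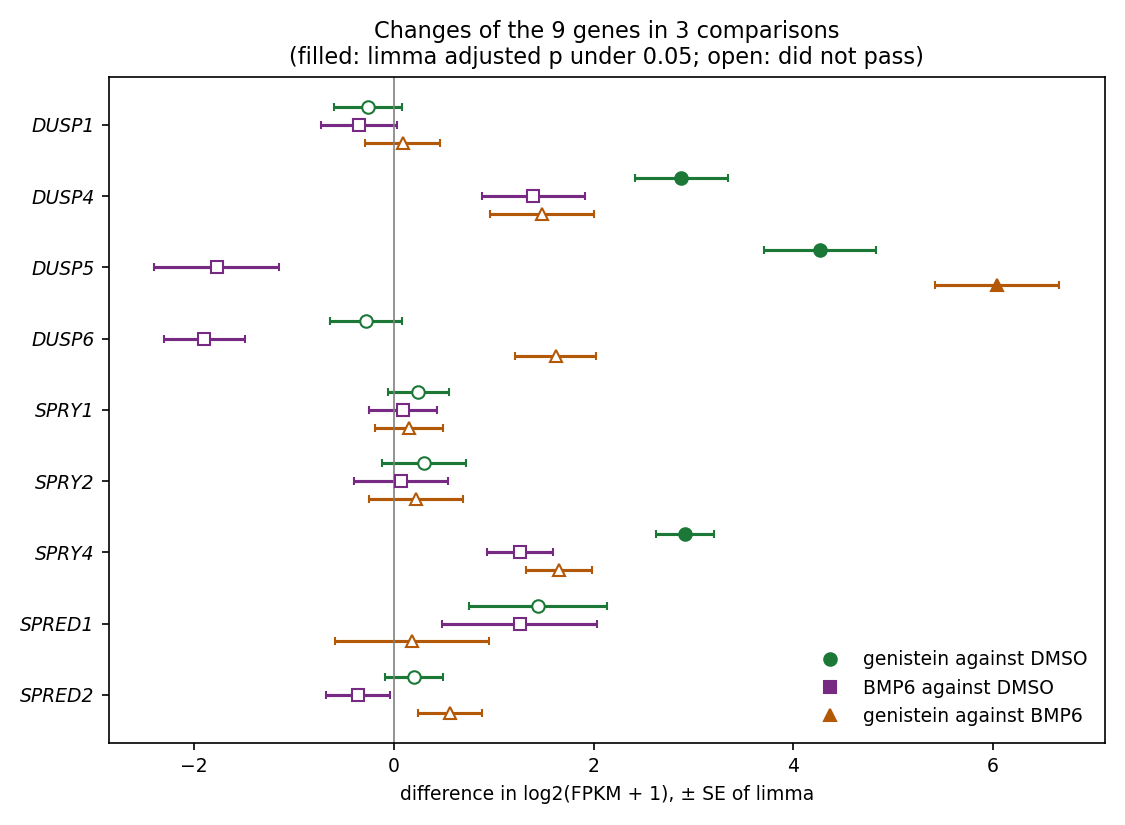
Difference in log2(FPKM + 1) with the SE of limma (horizontal axis) for the 9 genes in the 3 comparisons, filled where the adjusted p was under 0.05. DUSP4, DUSP5 and SPRY4 are filled for genistein against DMSO, DUSP5 alone for genistein against BMP6, and no gene for BMP6 against DMSO.

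Shares within the Sprouty and phosphatase families did not overlap between DMSO and genistein for SPRY1, SPRY2, SPRY4, DUSP4, DUSP5 and DUSP6. Those of DUSP1 and of the Spred genes overlapped. A share is part of a family sum, so it can fall when another gene rises, without a change in its own level. SPRY4 supplied 26.6% to 27.3% of the summed FPKM of SPRY1, SPRY2 and SPRY4 in DMSO, 67.0% to 74.0% after genistein and 43.2% and 48.2% after BMP6, with no overlap between groups. The Sprouty sum went from 123 ± 11.3 FPKM in DMSO to 366 ± 52.2 after genistein (SD, n = 3 each). Among DUSP1, DUSP4, DUSP5 and DUSP6, DUSP6 held 80.8% to 85.5% of the summed FPKM in DMSO and 60.1% to 68.7% after genistein. DUSP5 held 0.646% to 1.64% in DMSO and 17.8% to 26.5% after genistein. The phosphatase sum overlapped between DMSO (456 to 579 FPKM) and genistein (489 to 659 FPKM), and both BMP6 libraries lay below them at 166 and 224 FPKM.

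**Figure D3:**
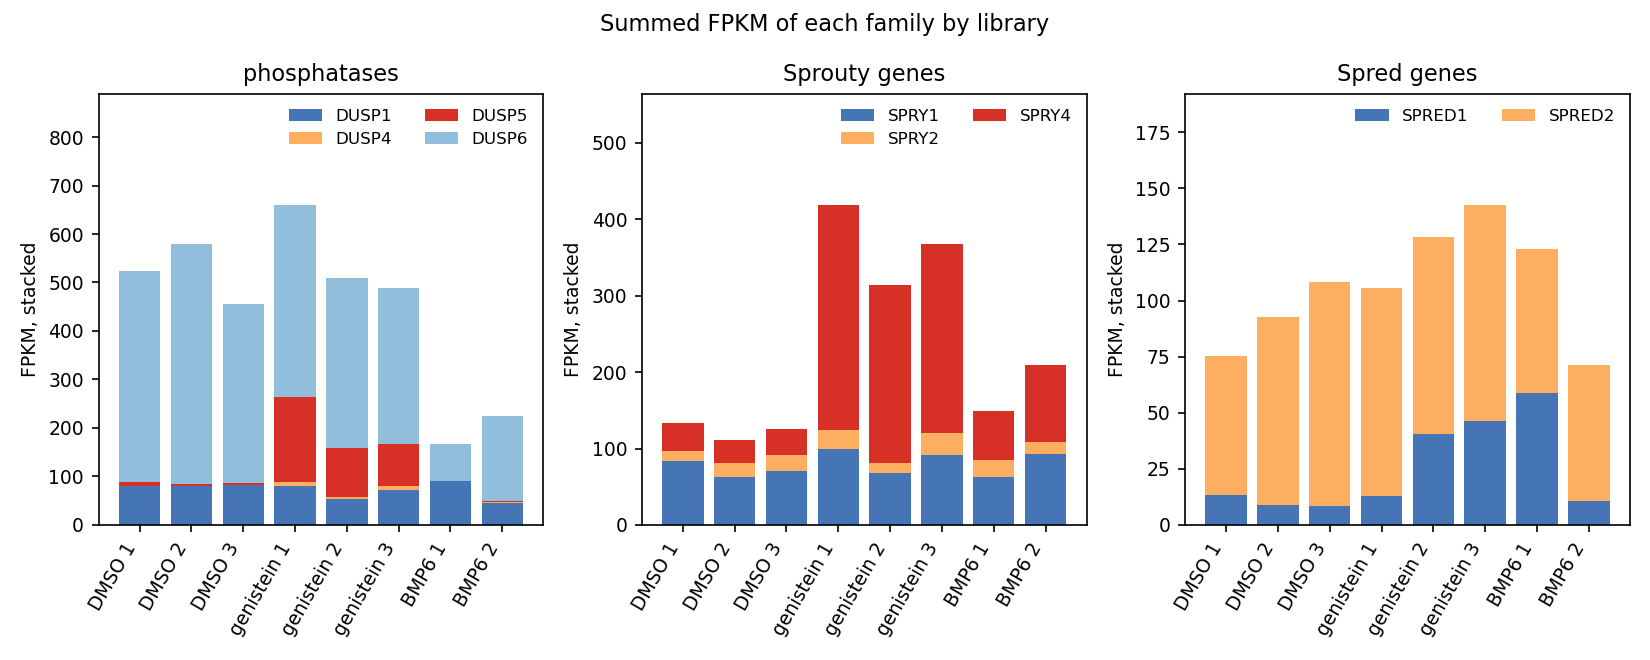
Stacked FPKM (vertical axis, from 0) of the phosphatase, Sprouty and Spred genes in each of the 8 libraries. SPRY4 fills most of the Sprouty bar in the genistein libraries, and the shorter phosphatase bars of BMP6 1 and BMP6 2 come with less DUSP6.

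After BMP6, none of the 9 genes passed (limma, adjusted p under 0.05), where 0.837% of the tested genes did, 0.340% as higher and 0.498% as lower. At an unadjusted p under 0.05, 4 of the 9 differed, SPRY4 and DUSP4 as higher and DUSP6 and DUSP5 as lower, as did 18.9% of all tested genes. These are the 4 genes whose BMP6 and DMSO libraries did not overlap, which was the case for 33.3% of the tested genes. The comparison shares its DMSO libraries with the one on genistein and rests on 2 BMP6 libraries, for which the smallest exact permutation p is 0.2.

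DUSP6 stood at 75 and 175 FPKM in BMP6 1 and 2, both below the lowest DMSO library (368 FPKM). The log2 change was -1.90 ± 0.41 (SE), 3.73-fold lower on the FPKM + 1 scale, and did not pass with FPKM as deposited (limma adjusted p = 0.0757). It passed after median-of-ratios scaling (0.0281), scaling to the library total (0.0156) and quantile normalization (0.0182), where 3.02%, 5.19% and 2.67% of all tested genes passed. It also passed without BMP6 2 (-2.50, limma adjusted p = 0.0239) and not without BMP6 1 (-1.295, limma adjusted p = 0.155). Without BMP6 2, 14.9% of all tested genes passed, and in both fits BMP6 is a single library whose spread is assumed to be that of the other groups.

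SPRY4 stood at 64.3 and 101 FPKM in BMP6 1 and 2, both above the highest DMSO library (36.4 FPKM) and below the lowest genistein library. The log2 change was 1.26 ± 0.33 (SE) and did not pass (limma adjusted p = 0.117). It passed after median-of-ratios scaling (limma adjusted p = 0.0446) and in none of the other alternatives. DUSP4 was at 1.39 and 1.9 FPKM after BMP6, against 0 in every DMSO library (limma adjusted p = 0.207).

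DUSP5 was listed at 0 in BMP6 1 and at 2.12 FPKM in BMP6 2, below its DMSO range. Its log2 change of -1.78 ± 0.62 (SE) did not pass (limma adjusted p = 0.192), and passed without BMP6 2 (-2.60, limma adjusted p = 0.0408) but not without BMP6 1 (-0.954, limma adjusted p = 0.475), again with 1 BMP6 library left. SPRED1 was at 58.8 FPKM in BMP6 1 and at 10.8 FPKM in BMP6 2, so 1 library lay far above DMSO and the other within its range (log2 change 1.26, 95% interval -0.52 to 3.04, limma adjusted p = 0.4). DUSP1 was likewise split, at 89.8 and 45.2 FPKM (-0.35, 95% interval -1.22 to 0.52). SPRY1, at 63.3 and 92.3 FPKM (0.09, 95% interval -0.70 to 0.88), and SPRY2, at 21.2 and 16 FPKM (0.08, 95% interval -1.004 to 1.15), overlapped DMSO. SPRED2 was at 64 FPKM in BMP6 1, inside its DMSO range, and at 60.3 FPKM in BMP6 2, just below it (-0.36, 95% interval -1.097 to 0.37).

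The direct comparison of genistein with BMP6 asks where the treatments differ. All 9 genes had a positive log2 difference, as did 7064 of all 12661 tested genes. The median of the 9 was 0.56, against 0.12 for all tested genes. The small differences of SPRED1 (0.18), SPRY1 (0.15) and DUSP1 (0.09) changed sign with median-of-ratios scaling. DUSP5 alone passed by limma, where 1.39% of the tested genes did, 0.640% as higher and 0.750% as lower. It was higher after genistein by 6.04 ± 0.62 on the log2(FPKM + 1) scale (SE; limma adjusted p = 0.00541), with libraries at 86.8 to 175 FPKM against 0 and 2.12. That call was lost when only the groups compared were fitted (limma adjusted p = 0.0594) and with a replicate block (0.06). SPRY4 was higher by 1.66 ± 0.33 (SE; limma adjusted p = 0.057), and passed with a pseudocount of 5 (0.0484), median-of-ratios scaling (0.0318), scaling to the library total (0.0269), quantile normalization (0.0279) and without BMP6 2 (0.0323), which leaves 1 BMP6 library.

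DUSP6 was higher after genistein than after BMP6 by 1.62 ± 0.41 (SE; limma adjusted p = 0.11). It passed after median-of-ratios scaling (limma adjusted p = 0.044), scaling to the library total (0.0269), quantile normalization (0.0249) and, again with 1 BMP6 library left, without BMP6 2 (0.0289). Of all tested genes 3.29%, 3.31%, 3.35% and 4.27% passed in these fits. The genistein and BMP6 libraries did not overlap for DUSP4, DUSP5, DUSP6, SPRY4 and SPRED2, which were all higher after genistein. Of the tested genes 28.9% did not overlap, 16.3% as higher. At an unadjusted p under 0.05, 4 of the 9 were higher, DUSP4, DUSP5, DUSP6 and SPRY4, as were 1044 of all 12661 tested genes. SPRED2 did not pass (0.56, 95% interval -0.17 to 1.30), and the other genes had differences between 0.09 and 0.22.

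Of 8 related genes outside the 9, DUSP2 reached no more than 0.53 FPKM, SPRY3 and SPRED3 were listed at 0 in every library, and 5 were tested. DUSP9, a cytoplasmic ERK phosphatase, was more abundant than DUSP6 on average in DMSO, at 677 ± 205 FPKM (SD, n = 3), and did not pass after genistein (416 ± 137) or BMP6 (459 and 1487 FPKM). DUSP8, which acts on JNK and p38, was at 4.94, 5.56 and 7.42 FPKM in DMSO and at 47.7, 70.3 and 24.1 FPKM after genistein, a rise of 2.68 ± 0.60 (log2, SE; limma adjusted p = 0.0276). It was the 1 related gene that passed, and it did not pass without any 1 of the DMSO or genistein libraries, with adjusted p from 0.0565 to 0.0996. DUSP10 and DUSP16, also phosphatases of JNK and p38, did not pass, with log2 changes of 1.596 and 1.08.

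The cascade that the feedback acts on was read from 31 genes, from receptors to ERK and its kinase substrates, all tested. After genistein 3 were lower and none higher, ERBB3, FGFR2 and PEBP1, where 5.96% of all tested genes were lower and 6.11% higher, so the count lies near that of all genes. ERBB3, a receptor that pairs with ERBB2, fell to 256 ± 26.9 FPKM from 616 ± 117 (SD, n = 3 each), a log2 change of -1.25 ± 0.29 (adjusted p by limma = 0.0295). PEBP1, the RAF kinase inhibitor protein, fell to 741 ± 256 FPKM from 4099 ± 591, a log2 change of -2.51 ± 0.48 (limma adjusted p = 0.0174). FGFR2 was at 2.16 to 2.29 FPKM in DMSO and listed at 0 in every treated library. It was tested only because its DMSO libraries reached 1 FPKM. Its call as lower (limma adjusted p = 0.0388) thus rests on values near that bound. The median log2 change of the 31 was 0.30. The count of 3 was 0 without DMSO 2, DMSO 3, genistein 2 or genistein 3, 1 without genistein 1, and 5 without BMP6 1 or BMP6 2. After BMP6 none of the 31 passed by limma. At an unadjusted p under 0.05, 1 was higher and 3 were lower, beside 18.9% of all tested genes in either direction. RPS6KA3, an ERK-activated kinase, had the largest positive difference among them, with 203 ± 67.1 FPKM in DMSO and 1638 and 827 FPKM in BMP6 1 and 2, and did not pass (log2 difference 2.57 ± 0.47, limma adjusted p = 0.055).

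Among 18 tested ERK target genes outside the 9, 4 rose after genistein and none fell, where 6.11% of all tested genes rose. A positive change was seen in 17 of the 18, and in 6515 of all 12661 genes. EPHA2, an ephrin receptor, rose to 240.3 ± 16.2 FPKM from 44.9 ± 10.4 (SD, n = 3 each), a log2 change of 2.42 ± 0.35 (adjusted p by limma = 0.00794), and passed in all 20 alternatives. ERRFI1, which encodes an inhibitor of the EGF receptor and so a further feedback protein, went from 191 ± 18.2 to 633 ± 57.3 FPKM (1.72 ± 0.27, limma adjusted p = 0.00966; 0.0571 without DMSO 2). PHLDA1 rose by 2.92 ± 0.66 (limma adjusted p = 0.0287), and did not pass without any 1 of the DMSO or genistein libraries, where its adjusted p reached 0.0932. EGR1, an immediate early transcription factor, rose from 168 ± 19.2 to 436 ± 37.1 FPKM (1.38 ± 0.36, limma adjusted p = 0.0447), and passed in 10 of 20 alternatives, with adjusted p from 0.00168 to 0.134. ETV4 (0.13), MYC (0.68) and IER3 (2.23, with an SE of 0.79) did not pass. The count of 4 was 2 without DMSO 1, DMSO 3 or any 1 genistein library, 1 without DMSO 2, and 7 without either BMP6 library.

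After BMP6 none of these 18 target genes passed by limma. At an unadjusted p under 0.05, 2 were higher and 2 lower, beside 18.9% of all tested genes in either direction. Among the higher was ERRFI1, at 344 and 426 FPKM in BMP6 1 and 2 (log2 change 1.00 ± 0.30, limma adjusted p = 0.152). A negative change was seen in 14 of the 18, with a median of -0.57, and in 6454 of all 12661 genes, with a median of -0.03. These signs rest on 2 BMP6 libraries that differ. Without BMP6 1, the changes of IER3 and ETV4 went from -0.216 and -0.331 to 1.431 and 0.093. Those of MYC and EGR1 stayed negative (-1.153 and -2.327), and the median of all tested genes was 0.232. EGR1 was at 79.2 and 32.5 FPKM in BMP6 1 and 2, against 147 to 185 FPKM in DMSO (log2 change -1.70 ± 0.40, limma adjusted p = 0.0982). Between the treatments it was the 1 target gene past the adjusted threshold, higher after genistein by 3.07 ± 0.40 (limma adjusted p = 0.0129). At an unadjusted p under 0.05, 13 of the 18 were higher after genistein, as were 1044 of all 12661 tested genes. The adjusted call of EGR1 was lost without genistein 1, 2 or 3, where its limma adjusted p was at most 0.0643. No target gene then passed, while 2 passed without DMSO 1 and 5 without BMP6 2.

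**Figure D4:**
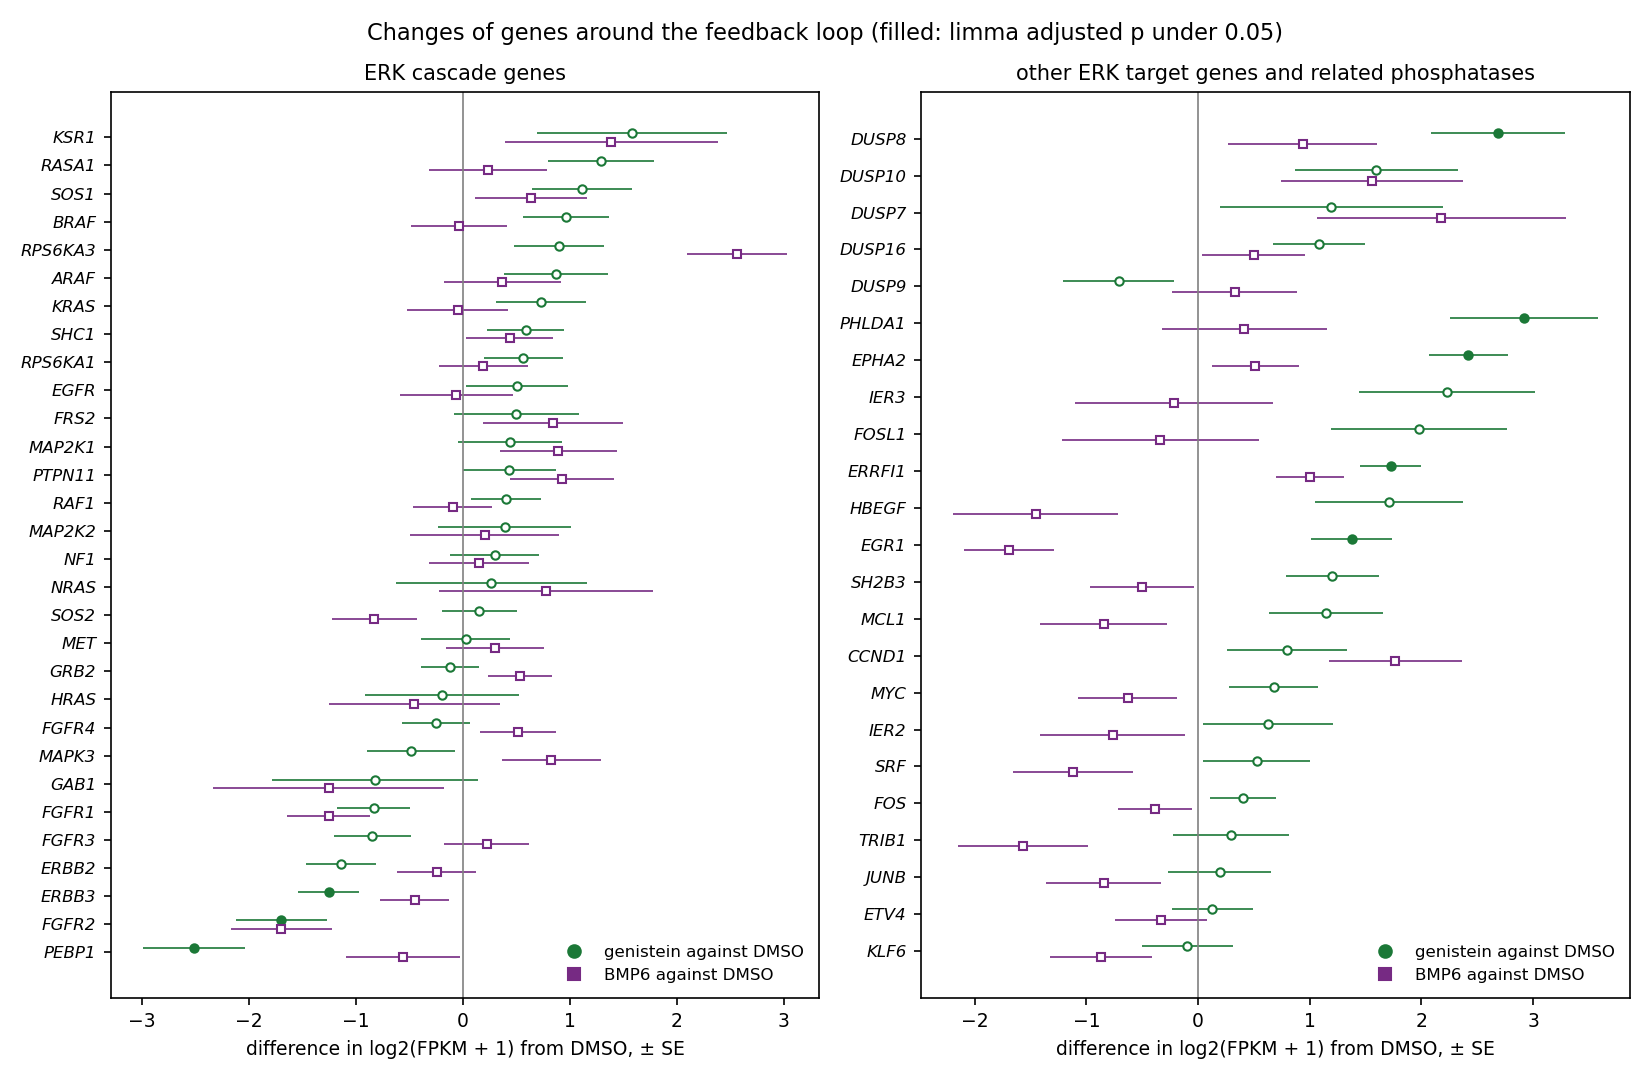
Difference in log2(FPKM + 1) from DMSO with the SE of limma (horizontal axis) after genistein (circles) and BMP6 (squares), for the cascade genes on the left (1 of the 31 is not shown) and for 18 ERK target genes and 5 related phosphatase genes on the right, filled where the adjusted p was under 0.05. On the right 17 of the 18 target genes lie above 0 after genistein. After BMP6 14 lie below 0, a count that rests on 2 libraries. On the left ERBB3, FGFR2 and PEBP1 are filled.

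For each of the 3 genes that rose, the tested genes with the most similar course over the 8 libraries were found by the root mean square difference of log2(FPKM + 1) after subtraction of each gene's own mean. The nearest to DUSP4 was SPRY4, at 0.259, and DUSP4 was second nearest to SPRY4, after SH3BP2, which encodes an adaptor protein of tyrosine kinase signalling, at 0.242. SH3BP2 was at 5.47 to 8.76 FPKM in DMSO, 41.5 to 59.1 FPKM after genistein and 11.3 and 19.7 FPKM after BMP6. It was chosen over all 8 libraries, BMP6 included, so sharing the intermediate place of BMP6 with SPRY4 follows from that choice. ADAMTS2, a procollagen protease, was also among the 3 nearest of both, 0.298 from SPRY4 and 0.302 from DUSP4. DUSP5 had no neighbour as close: PALLD (0.731), CDKN2B (0.748) and AREG (0.773) were its nearest. The measure is not scaled to the size of a gene's changes, which were largest in DUSP5, so its distances are not directly comparable. AREG, the EGF receptor ligand amphiregulin, was at 2.53 to 9.03 FPKM in DMSO, 115 to 170.4 FPKM after genistein and 1.03 and 5.17 FPKM after BMP6.

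**Figure D5:**
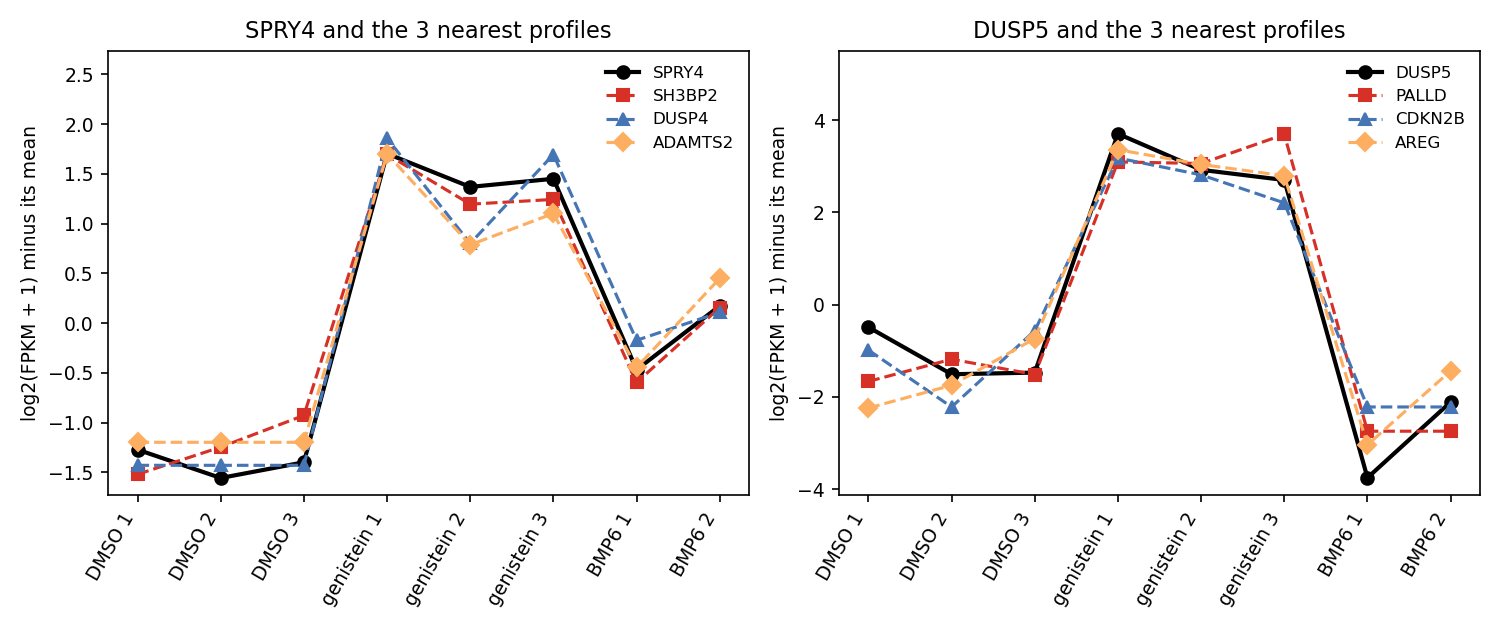
log2(FPKM + 1) minus the gene's mean over the 8 libraries (vertical axis) for SPRY4 and DUSP5 and the 3 nearest genes of each. BMP6 1 and BMP6 2 lie between the DMSO and genistein libraries for SPRY4 and its neighbours, and at the level of DMSO or below for DUSP5. The neighbours were chosen by likeness over these same libraries. Lines join libraries only to guide the eye.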

How the data were processed

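The deposited files give 1 FPKM value per Ensembl gene and library, per the file headers. As tools, the submitters' processing notes name Cufflinks 1.0.3, Cuffdiff, TopHat 1.1.0 and Bowtie, and as build hg18; settings are not given in the sources used here. Symbols came from a table of gene names (19069 IDs matched). Whole reads could not be recovered: length and value had Spearman correlations of -0.0811 to 0.0775 over the 1000 lowest values above 0 of a library. Count models were therefore left out. The interval in the files was FPKM plus and minus 2 times its square root (within 0.05) for 60.22% to 69.24% of genes above 0 and gave no depth. Coordinates are those of the files with starts counted from 1.

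A gene was tested if 2 or more libraries reached 1 FPKM (12661 genes). All 8 libraries entered one limma fit (version 3.58.1, R 4.3.3; 5 residual and 3.22 prior degrees of freedom) on log2(FPKM + 1) with an intensity trend, and p-values were adjusted by Benjamini and Hochberg over all tested genes. Fold changes on this scale understate changes of low genes. The fit was tested on simulated data. Exact permutation tests used SciPy 1.17.1. The 9 genes and the other lists were chosen with earlier results of these data known, so counts over a list are descriptions. All 9 genes are named. From the other lists, genes past the threshold in any comparison may be named, with up to 3 abundant ones that did not pass. Alternatives covered the pseudocount, filter, scaling, samples fitted, library weights, left-out libraries and a replicate block.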

Additional observations from a re-analysis of the deposited data

How the results depend on the processing

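Of 531 values of the 9 genes under alternatives, 492 kept their direction and side of the threshold, 4 lost a call, 16 gained one and 19 changed sign, none of which passed before or after; except where stated, the cause was not tested. Counts of genes past the threshold were 3, 0 and 1 of the 9 for genistein against DMSO, for BMP6 against DMSO and for the direct comparison of the treatments. The third was 2 with a pseudocount of 5. With genes above 0 in all libraries the first was 1 and the third 0, since DUSP4 and DUSP5 were then not tested. With median-of-ratios scaling, scaling to the library total and quantile normalization, the second was 2, 1 and 1 and the third 3 each. The third was 0 with only the groups compared. Leaving out 1 library gave 2 to 3, 0 to 2 and 1 to 3.

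For genistein against DMSO, the cascade, target and related genes had 3, 4 and 1 calls, with 0 to 5, 1 to 7 and 0 to 1 when 1 library was left out. With only the groups compared the first pair of counts were 5 and 7, with arrayWeights they were 10, 8 and 2, and with quantile normalization the related genes had 2. Of all tested genes 20.7%, 42.5% and 18.9% passed in these fits. For BMP6 against DMSO the cascade had 0 calls, 1 with a pseudocount of 5, with genes above 0 in all libraries, with median-of-ratios scaling or with scaling to the library total, and 2 with no filter. Leaving out 1 library gave 0 to 4 for the cascade and 0 to 1 for the targets. For genistein against BMP6 the cascade went from 0 to 2, 1 and 2 and the targets from 1 to 3, 5 and 5 under the 3 scalings in the order above. Leaving out 1 library gave 0 to 1 and 0 to 5. With DMSO 1, genistein 2 and BMP6 1 left out together, the cascade and targets had 1 and 2 calls for BMP6 against DMSO and 3 and 2 for genistein against BMP6.

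No clear pairing of libraries by replicate number was seen, but deviations within such small groups depend on each other and cannot exclude it. Correlations over tested genes of same-numbered deviations were -0.146, -0.065 and -0.005 between DMSO and genistein. They were 0.055 and 0.001 between DMSO and BMP6, and -0.247 and 0.286 between genistein and BMP6. The closest pair, genistein 3 and BMP6 1 (0.594), had different numbers. With a replicate block the calls for genistein against DMSO were 3 among the 9 genes, 0 in the cascade, 2 among targets and 0 among related genes, and for genistein against BMP6 0 among the 9 and 0 among targets.

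With median-of-ratios scaling, SPRED1, SPRY1 and DUSP1 went from 0.18, 0.153 and 0.088 to -0.019, -0.042 and -0.110 for genistein against BMP6, and DUSP1 to -0.085 with quantile normalization. For BMP6 against DMSO, SPRY2 and SPRY1 went from 0.075 and 0.092 to -0.019 and -0.024 with scaling to the library total, SPRY2 to -0.057 with arrayWeights and to -0.316 with DMSO 1, genistein 2 and BMP6 1 left out. Leaving out 1 library gave, for BMP6 against DMSO, -0.125 to 0.266 for SPRY2, -0.177 to 0.360 for SPRY1 and -0.834 to 0.141 for DUSP1, and for genistein against BMP6, -0.989 to 1.349 for SPRED1, -0.115 to 0.422 for SPRY1 and -0.400 to 0.575 for DUSP1. The median over all genes shifted (log2) by -0.101 with median-of-ratios scaling and -0.102 with scaling to the library total in the comparison of genistein with DMSO, and by -0.155 with the former in that of the treatments. Calls for genistein against DMSO were 773 higher and 754 lower, and 850 and 1421 with scaling to the library total.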

Other observations

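SPRED1 separated the libraries in a way that crossed the treatments. It was at 40.4, 46.2 and 58.8 FPKM in genistein 2, genistein 3 and BMP6 1, and between 8.64 and 13.3 FPKM in the other 5 libraries, genistein 1 and BMP6 2 among them. Among the tested genes nearest to it in course, looked up after its values were seen, were TRIM23 (root mean square log2 difference 0.288) and MANEA (0.299). MANEA encodes a mannosidase. Both had the same high libraries, which follows from their choice by course. MANEA was at 43.1, 34.2 and 47 FPKM in genistein 2, genistein 3 and BMP6 1, and between 8.4 and 16.4 FPKM in the other 5. Over all tested genes, the deviations of genistein 3 and BMP6 1 from their group means had a correlation of 0.594, the highest between any libraries of different groups. Genistein 2, also high in SPRED1, went the other way, with a correlation of -0.286 with BMP6 1. These correlations are across genes, which are not independent replicates, and a group of 2 libraries has equal and opposite deviations.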
